A study of Mus musculus with 188 samples.

Results

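The genes described here mark brown fat, the heat-producing fat that lies around the thoracic aorta of the mouse. Of 9 genes listed, 6 were measured by a probe set that carries 1 gene symbol: Ucp1, Cidea, Elovl3, Dio2, Cox7a1 and Cox8b. All 5 probe sets of Ppargc1a carried 2 symbols, so no value is given for it, and Prdm16 and Otop1 had no named probe set and were not analysed here. Each gene was read from the probe set with the highest mean, among 11725 genes named in all and 22327 probe sets tested. The 9 genes were listed as known brown fat genes, with earlier results from these arrays known.

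The arrays measured aortic RNA of male mice aged 16 weeks that ate chow and received no treatment. The labels give every mouse the genotype wild-type, although the strain names BXD24/TyJ-Cep290<rd16>/J and BXD29-Tlr4<lps-2J>/J carry mutant alleles of Cep290 and Tlr4. In all, 188 Affymetrix HT_MG-430A arrays covered 94 strains. The strains belong to the Hybrid Mouse Diversity Panel, a set of inbred and recombinant inbred mice assembled for genetic mapping. AXB/BXA strains (28) derive from A/J and C57BL/6J, BXD strains (27 without BXD32/TyJ) from DBA/2J and C57BL/6J, and BXH strains (10) from C3H/HeJ and C57BL/6J, while the other 28 are inbred strains that include these parents. Most strains had 2 arrays (79), with 1 array in 9 strains, 3 arrays in 3 and 4 arrays in 3. Whether replicate arrays stand for different mice is not stated in the labels, and p-values therefore measure only array-to-array spread. Levels are log2 values and ran from 2.17 to 13.5 over all probe sets. Probe sets differ in how strongly they respond, so levels are compared between arrays and not between genes. The brightest probe sets also respond less to further RNA. Ucp1 (mean 12.68), Cox8b (12.54) and Cidea (12.36) ranked 14, 21 and 40 from the top of the 22327, so their spread may be compressed, which was not tested, and spreads are not compared between genes either.

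Brown adipocytes burn fatty acids in dense mitochondria and release the energy as heat. Sympathetic nerves start this by way of beta-adrenergic receptors and cyclic AMP, which frees fatty acids from lipid droplets and raises transcription of the thermogenic genes. UCP1 is the protein that lets protons leak across the inner mitochondrial membrane. DIO2 converts thyroxine to active thyroid hormone inside the cell, ELOVL3 lengthens fatty acids, and CIDEA sits on lipid droplets. COX7A1 and COX8B are subunit forms of cytochrome c oxidase that brown fat shares with heart and skeletal muscle.

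Promoters are shown for the 4 measured genes that had an entry in the RefSeq table. Each is the 250 bases before the RefSeq start in build GRCm38.p6. The Ucp1 window lies at chr8:83290098-83290347 on the plus strand and the Dio2 window at chr12:90739039-90739288 on the minus strand. The Cox7a1 window lies at chr7:30183921-30184170 on the plus strand and the Cox8b window at chr7:140900447-140900696 on the minus strand. Capitals mark matches to 3 motifs searched on both strands: AGGTCA (half-site of nuclear receptors), TGACGTCA (cyclic AMP response element) and TATAAA (a core promoter element).
Ucp1: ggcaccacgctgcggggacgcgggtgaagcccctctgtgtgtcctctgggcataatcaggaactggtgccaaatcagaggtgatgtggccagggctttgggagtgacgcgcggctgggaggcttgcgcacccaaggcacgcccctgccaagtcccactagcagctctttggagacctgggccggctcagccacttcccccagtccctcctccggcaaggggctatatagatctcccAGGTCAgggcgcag
Dio2: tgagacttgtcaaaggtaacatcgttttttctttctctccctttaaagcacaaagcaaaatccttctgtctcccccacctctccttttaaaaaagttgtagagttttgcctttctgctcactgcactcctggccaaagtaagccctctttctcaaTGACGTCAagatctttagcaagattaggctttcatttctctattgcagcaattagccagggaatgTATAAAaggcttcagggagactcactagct
Cox7a1: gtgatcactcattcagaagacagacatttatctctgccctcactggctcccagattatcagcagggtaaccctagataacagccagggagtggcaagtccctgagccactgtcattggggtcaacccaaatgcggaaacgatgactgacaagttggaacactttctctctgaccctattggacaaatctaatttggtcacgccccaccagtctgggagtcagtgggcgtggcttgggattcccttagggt
Cox8b: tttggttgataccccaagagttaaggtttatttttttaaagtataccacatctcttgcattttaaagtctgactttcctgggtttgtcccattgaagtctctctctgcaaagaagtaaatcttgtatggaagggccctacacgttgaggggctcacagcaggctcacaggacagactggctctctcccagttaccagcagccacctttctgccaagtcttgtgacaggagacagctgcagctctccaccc
The Ucp1 window held 1 AGGTCA, 9 to 14 bases before the start. The Dio2 window held TGACGTCA, 88 to 95 bases before the start, and TATAAA, 25 to 30 bases before it. Of 32851 windows of this length in the RefSeq table, 14% held AGGTCA, 1.55% held TGACGTCA and 12.4% held TATAAA. Neither the Cox7a1 nor the Cox8b window held these letters. The motifs do not overlap one another, and a match describes letters only. The table held 7 of the 9 genes and no entry for Cidea or Elovl3.

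The tissue was checked first against markers. Smooth muscle genes were present, with Acta2, smooth muscle actin, at 11.05 to 13.13 and Myh11, smooth muscle myosin, at 6.94 to 10.42 over the arrays. Adipoq, the adiponectin gene of all fat cells, lay between 11.02 and 12.53. Of the general adipocyte genes, Acaca (mean 4.72) and Pck1 (3.28) were dim, and the others averaged 7.21 (Aqp7) to 12.51 (Fabp4). A fat signal was thus present on all 188 arrays beside that of the vessel wall. Lep, the leptin gene typical of white fat, lay between 2.68 and 6.31. Other white fat markers reached higher on some arrays: Wfdc21 (up to 9.80), Agt (8.20), Npr3 (7.74) and Hoxc8 (6.47). Ccl2 (5.12) and Sfrp5 (5.07) did not. White fat is therefore not judged from Lep alone. Arrays also varied in genes of neighbouring tissues. The skeletal muscle score (15 of 15 listed genes measured, as the mean of centred log2 values) ran from -4.06 to 3.85. The cardiac muscle score (9 of 11) ran from -4.59 to 2.84, the thymocyte score (10 of 14) from -1.10 to 4.91 and the squamous epithelium score (14 of 15) from -1.26 to 4.46. In bulk RNA, fewer cells of a type and less RNA per cell cannot be told apart.

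Ucp1 was read near the upper end of the scale in nearly every aorta. Its array values were 9.75 at the lowest, 12.72 at the median and 13.18 at the highest. The lowest value stood alone: NOD/ShiLtJ replicate 1 measured 9.75 and NOD/ShiLtJ replicate 2 measured 12.72. Strain means ran from 11.24 in NOD/ShiLtJ to 13.05 in BXA11/PgnJ. The next lowest strain was BXD42/TyJ at 12.29, so all strains but 1 lay within less than 1 log2 unit of each other. The step above NOD/ShiLtJ exceeded the within-strain SD of 0.265. With 94 strains in order, such steps are small for any gene: of 93 steps, 1 exceeded the within-strain SD for Ucp1 and 1 for Cox7a1, and 0 for each of the other genes.

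Cidea was also read near the upper end. Its arrays measured 11.71, 12.40 and 12.75 at the lowest, median and highest. BXA7/PgnJ had the lowest strain mean, 11.80, from arrays of 11.88 and 11.72. AXB24/PgnJ had the highest, 12.61, from arrays of 12.75, 12.54 and 12.55. The within-strain SD was 0.161.

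Elovl3 arrays measured 4.23 at the lowest, 10.20 at the median and 11.33 at the highest. Strain means ran from 6.91 in BXD42/TyJ (6.76 and 7.06) to 11.33 in BXH10/TyJ (1 array), a 21.4-fold range. AXB1/PgnJ was low on both arrays (6.98 and 7.15). BXH7/TyJ was high on both (11.32 and 11.18), as was BXD6/TyJ (11.04 and 11.22). Replicates of these strains stayed at their own end of the scale. Other low means hid a disagreement between arrays: KK/HlJ measured 9.98 and 4.23, and NOD/ShiLtJ measured 5.10 and 9.05. In 15 of 84 strains the arrays differed by more than 1 log2 unit.

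Dio2 had a within-strain SD of 1.08. Its arrays measured 3.63, 7.58 and 9.81 at the lowest, median and highest. Strain means ran from 4.47 in AXB1/PgnJ (4.49 and 4.44) to 9.73 in BXD6/TyJ (9.80 and 9.66), a 38.5-fold range. These end strains repeated closely, as did RIIIS/J (4.60 and 4.59). In contrast, AXB23/PgnJ measured 8.99 and 4.87, and arrays of 38 of 84 strains differed by more than 1 log2 unit. Dio2 alone among these genes had further probe sets, and these followed the brightest one across arrays with r = 0.95 and r = 0.85.

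The oxidase subunits were read near the upper end as well. Cox7a1 arrays measured 9.30, 11.28 and 11.85 at the lowest, median and highest, with strain means from 10.29 in NOD/ShiLtJ to 11.67 in BXD40/TyJ (11.49 and 11.85). Cox8b arrays measured 11.55, 12.57 and 13.00, with strain means from 12.06 in RIIIS/J (12.14 and 11.97) to 12.82 in AXB6/PgnJ (12.85 and 12.79). NOD/ShiLtJ replicate 1 was the lowest array for both, at 9.30 and 11.55, against 11.27 and 12.62 in replicate 2.

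**Figure D1:**
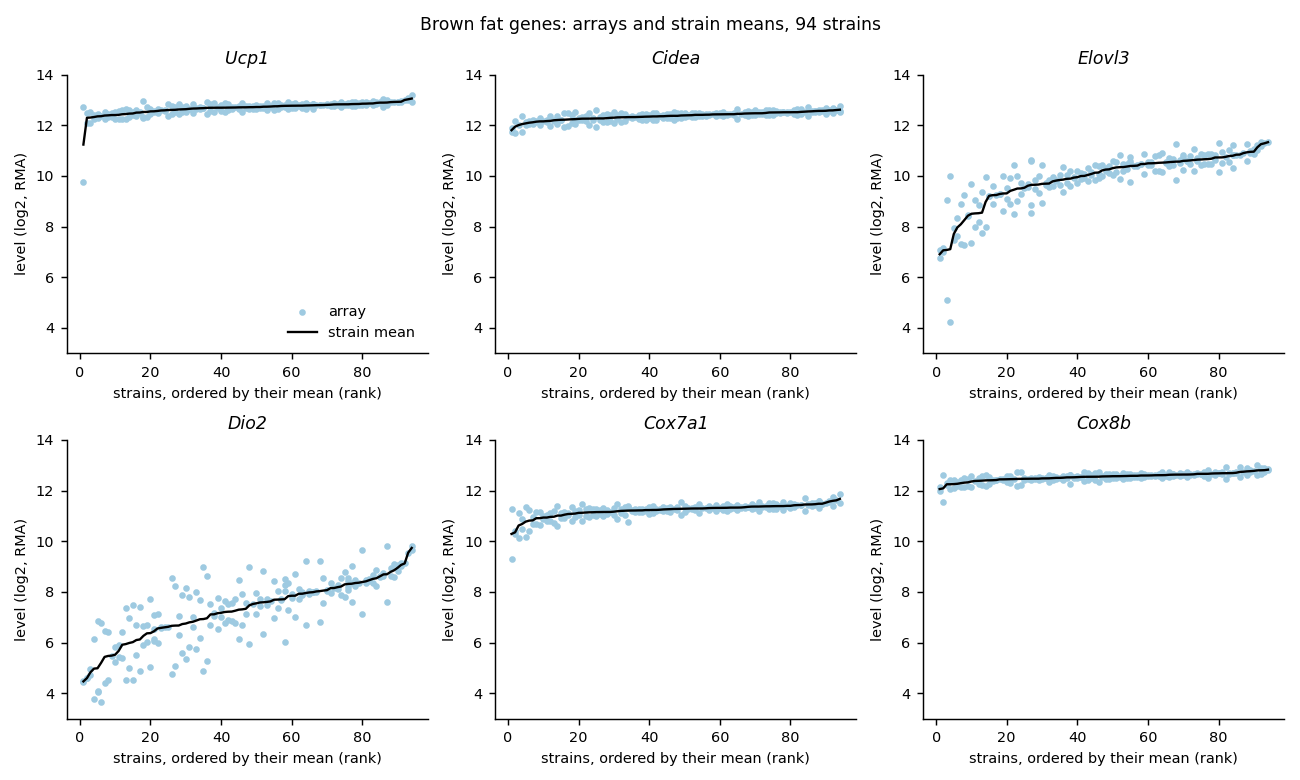
Levels of the 6 genes (log2 values) against the rank of the strain by its mean; pale points are arrays and the black line joins strain means of 94 strains. Elovl3 and Dio2 span several log2 units with widely scattered arrays at their low end, and the Ucp1 means lie between 12.29 and 13.05 except for NOD/ShiLtJ at the left.

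Strain differences were tested with limma's moderated F test over 84 strains with 2 or more arrays (177 arrays), adjusted over all probe sets. All 6 genes passed at an adjusted p below 0.05, where 46.5% of all probe sets passed. Not all calls held with the array number in the titles, whose meaning the labels do not give. With a term for the block of numbers (up to 1038, or from 1067), 5 passed and Ucp1 had an adjusted p of 0.055. Within the first block 3 of 6 passed (Cidea, Elovl3 and Dio2) and within the second 2 (Ucp1 and Elovl3). These counts stand without the share of all probe sets that passed, so they are not read as particular to these genes. Since 77 strains had consecutive numbers, strain and position in that series cannot be told apart for them. The intraclass correlation (ICC), the share of variance that lies between strains, was 0.182 at the median of all probe sets. Elovl3 had the highest ICC of the 6, 0.560 (95% interval 0.403 to 0.687), with an adjusted p of 1.6e-08. Its SD was 0.839 among strains and 0.744 within them. Dio2 followed at 0.386 (0.201 to 0.548; adjusted p = 2.2e-04), its SD being 0.860 among strains and 1.08 within. Cidea had an ICC of 0.316 (0.124 to 0.489; adjusted p = 0.0053).

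Ucp1, Cox7a1 and Cox8b were closer to the threshold. Cox7a1 had an ICC of 0.246 (0.050 to 0.428; adjusted p = 0.019), Cox8b 0.240 (0.044 to 0.423; adjusted p = 0.031) and Ucp1 0.203 (0.0048 to 0.390; adjusted p = 0.046). The Elovl3 interval, from 0.403, lay above that of Ucp1 and reached only just into those of Cox7a1 and Cox8b. The intervals of the other genes overlap widely. The Ucp1 value moved with few arrays. NOD/ShiLtJ replicate 1 and KK/HlJ replicate 2 were left out, a choice made after seeing the data. Both strains then had too few arrays for the test and dropped out, which left 173 arrays of 82 strains. The Ucp1 ICC was then 0.424 (0.241 to 0.580) and its adjusted p 1.9e-04. With both strains left out, the ICC of Elovl3 was 0.690 (0.565 to 0.786). Those of the other 4 genes lay between 0.30 and 0.37.

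Single strains decided some of these calls. Ucp1 missed the threshold in 18 of 84 fits that each left out 1 strain, with adjusted p from 1.8e-04 (without NOD/ShiLtJ) to 0.068 (without BXH4/TyJ). The others were 129X1/SvJ, AXB1/PgnJ, AXB19b/PgnJ, AXB8/PgnJ, BTBR T<+> tf/J, BXA11/PgnJ, BXA13/PgnJ, BXA16/PgnJ, BXD19/TyJ, BXD2/TyJ, BXD38/TyJ, BXD42/TyJ, BXD6/TyJ, BXD9/TyJ, C58/J, RIIIS/J and SM/J. Without RIIIS/J, Cox7a1 (0.093) and Cox8b (0.10) also missed it, leaving 3 of 6 genes. Without C57BL/6J, Cox8b missed it (0.052). Cidea, Elovl3 and Dio2 passed in all 84 fits.

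**Figure D2:**
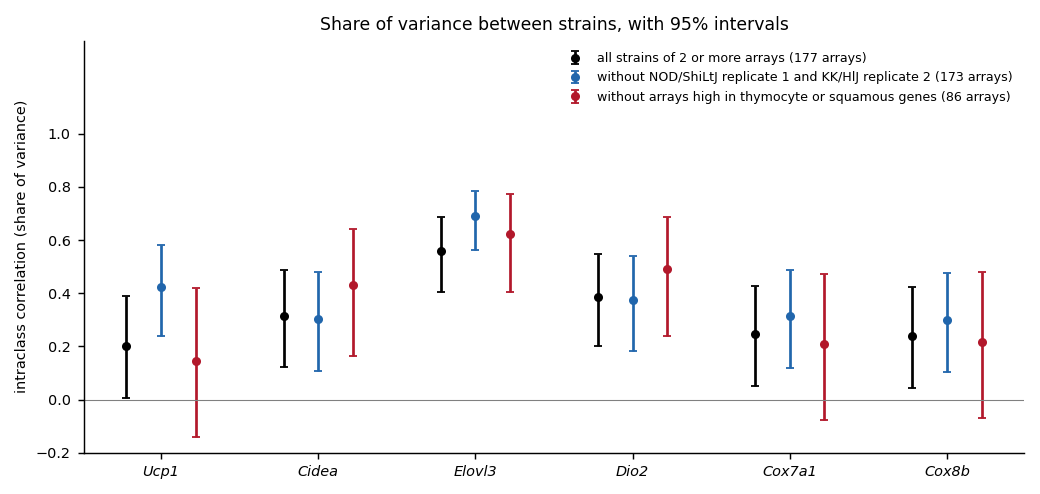
ICC of each gene (points, share of variance between strains) with 95% intervals (bars) for 3 choices of arrays. The Ucp1 point moves from 0.203 to 0.424 when the strains NOD/ShiLtJ and KK/HlJ drop out, and Elovl3 is highest under all 3 choices.

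A general adipocyte score (10 measured genes that are not specific to brown fat, Adipoq among them) was then added to the model. It is a level of expression and no measure of the amount of fat, and 9 of its 10 genes themselves passed the strain test. All 6 genes passed again, where 45.5% of all probe sets passed. Adjusted p was 3.6e-10 for Elovl3, 4.1e-04 for Dio2, 0.0011 for Cidea, 0.0013 for Ucp1, 0.0067 for Cox7a1 and 0.012 for Cox8b. In the 84 fits that each left out 1 strain, all 6 passed each time. Without the 68 arrays that scored over 1 for thymocyte or squamous epithelium genes, Cox7a1 (adjusted p = 0.068) and Cox8b (0.087) missed the threshold in this model.

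Certain strains stood low or high for several of the genes. BXD42/TyJ, C57L/J and NOD/ShiLtJ were each among the 10 lowest strains for 5 of the 6 genes, and AXB1/PgnJ and C58/J for 4. BXD11/TyJ (1 array) and I/LnJ (1 array) were among the 10 highest for 4, and BXD1/TyJ (1 array), BXD6/TyJ, BXH4/TyJ and C57BL/6J for 3. I/LnJ was at the same time among the 10 lowest for 1 gene, Cidea (12.15). AXB1/PgnJ was low for Ucp1, Cidea, Elovl3 and Dio2, while its Cox7a1 (11.41 and 11.33) and Cox8b (12.63 and 12.54) arrays lay near the medians. In all, 14 of 94 strains were below the median for all 6 genes and 8 were above it.

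Other tissues differed between these low strains. Thymocyte scores were high on both RIIIS/J arrays (4.68 and 4.91), both C57L/J arrays (3.78 and 2.56) and BXA7/PgnJ replicate 2 (4.43). In BXD42/TyJ (-1.04 and -0.92), AXB1/PgnJ (-0.93 and -0.92) and NOD/ShiLtJ (-0.57 and -0.81) the thymocyte score lay near its median of -0.74. The BXD42/TyJ arrays differed in other tissues: squamous epithelium scores were 3.66 and -0.93, skeletal muscle 3.85 and -3.73, cardiac muscle -3.34 and -2.89, and general adipocyte -0.53 and 0.14. C58/J had general adipocyte scores of -0.045 and -0.41 and thymocyte scores of -0.73 and 0.95. General adipocyte scores were -0.63 and -0.65 in AXB1/PgnJ and -0.78 and -0.82 in RIIIS/J. NOD/ShiLtJ replicate 1 had a general adipocyte score of -0.57 against 0.19 in replicate 2. KK/HlJ replicate 2, the array with the lowest Elovl3, had -0.28 against -0.12 in replicate 1. What part these tissues had in the ranks of single strains was not tested. When the 68 arrays with a thymocyte or squamous epithelium score over 1 were left out (86 arrays of 41 strains left), Cidea, Elovl3 and Dio2 passed. Ucp1 (adjusted p = 0.22), Cox7a1 (0.13) and Cox8b (0.18) did not. Their ICC was then 0.145, 0.209 and 0.216. The share of all probe sets that passed in this smaller fit is not given here. The loss is therefore not read as particular to these genes.

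The strain test was also run within each recombinant inbred family, whose strains carry alleles of the same parents. No genotype entered it, so segregation of alleles was not tested. Among 27 AXB/BXA strains (58 arrays) only Elovl3 passed (adjusted p = 7.6e-06, ICC 0.764, interval 0.566 to 0.882), where 3.81% of all probe sets passed. Among 22 BXD strains (46 arrays) Elovl3 (3.6e-05, ICC 0.774), Ucp1 (0.030, ICC 0.576) and Dio2 (0.042, ICC 0.423) passed, where 15.1% of all did. Among 9 BXH strains (20 arrays) none of the 6 passed in limma, where 1.26% of all probe sets did, although Dio2 had an unadjusted p of 0.039. Whether the families differ in this was not tested.

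Elovl3 ranged beyond the parents. AXB/BXA means ran from 7.06 to 10.96, against 9.61 in A/J and 10.13 in C57BL/6J. Of these 28 strains, 6 lay below both parents, 18 above both and 4 between. BXD means ran from 6.91 to 11.13, against 9.93 in DBA/2J, with 7 strains below both parents, 16 above both and 4 between. BXH means ran from 9.89 to 11.33, against 9.88 in C3H/HeJ, with 9 of 10 strains above both parents. Parental means rest on 2 or 3 arrays each, and positions relative to them were not tested.

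For Cox8b most strains of each family lay below both parents. C57BL/6J was high for Cox7a1 (11.64, 11.73 and 11.41) and Cox8b (12.86, 12.88 and 12.65). Below both parents for Cox8b were 23 of 28 AXB/BXA, 25 of 27 BXD and 7 of 10 BXH strains. For Cox7a1, 27 of 28 AXB/BXA strains lay below both. Of 27 BXD strains, 4 did and 22 lay between DBA/2J, itself low (11.01 and 11.13), and C57BL/6J. Of 10 BXH strains, 3 lay below both parents and 7 between. Neither gene passed the strain test within any family, and the Cox8b ICC was 0.026 in AXB/BXA, 0.558 in BXD and 0.023 in BXH. Across strain means Cox8b gave r = -0.26 with thymocyte and r = -0.27 with squamous epithelium genes. No parental array scored over 1 for either list, while many arrays of the families did. Positions relative to the parental means, and the part of these tissues in them, were not tested.

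The calls within families moved with single strains. In BXD, Ucp1 was lost without BXD19/TyJ, BXD2/TyJ, BXD42/TyJ or BXD6/TyJ (adjusted p up to 0.069). Dio2 was lost without BXD12/TyJ, BXD19/TyJ, BXD24/TyJ-Cep290<rd16>/J, BXD33/TyJ, BXD42/TyJ, BXD5/TyJ, BXD6/TyJ or BXD8/TyJ (up to 0.17). Without BXD22/TyJ, Cox7a1 (0.041) and Cox8b (0.045) passed as well, and Cox8b passed without BXD36/TyJ (0.047). In AXB/BXA, Ucp1 passed without AXB24/PgnJ (0.046). Elovl3 passed in every one of these fits in both families. It did not pass in BXD once those 68 arrays were left out (0.20), where none of the 6 did in limma (adjusted p from 0.063 to 0.63). For this smaller BXD fit the share of all probe sets that passed is not given. The loss is thus not read as particular to these genes.

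The parental strains did not differ detectably in any of the 6 genes. In limma contrasts against the 3 C57BL/6J arrays, 0 of 6 passed for each of the other parents (A/J, DBA/2J, then C3H/HeJ, each with 2 arrays), where 0.645%, 0.524% and 1.25% of all probe sets passed. At an unadjusted p below 0.05 the counts were 0, 1 and 0. That one was Cox7a1 in DBA/2J, lower by 0.52 on the log2 scale: the difference was -0.52 (95% interval -1.01 to -0.036; SE 0.244; unadjusted p = 0.035). Its adjusted p in limma was 0.95, from arrays of 11.01 and 11.13 against 11.64, 11.73 and 11.41 in C57BL/6J. Dio2 had the largest estimate, -1.65 in DBA/2J (-3.59 to 0.287), from arrays of 5.09 and 8.25 against 8.37, 7.59 and 9.01. Leaving out 1 array moved that estimate from -3.23 to -0.070, so it rests on which DBA/2J array is used. The Elovl3 interval for A/J reached from -1.85 to 0.811, so differences of either sign within it remain compatible with these arrays.

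Families also did not differ detectably on strain means. For AXB/BXA against BXD, AXB/BXA against BXH and BXD against BXH, 0 of 6 genes passed in limma, where 2.22%, 0.322% and 0.184% of all probe sets did. Unadjusted counts were 0, 1 and 0. Elovl3 averaged 9.99 in AXB/BXA and 10.65 in BXH, a difference of -0.66 (-1.28 to -0.033; unadjusted p = 0.039; adjusted p = 0.64). Inbred strains, for which no contrast was made, ran from 7.08 to 11.29 for Elovl3 with a median of 9.52, against medians of 10.36, 10.50 and 10.62 in AXB/BXA, BXD and BXH. The array number in the titles moved with this: Elovl3 averaged 9.62 ± 1.29 (SD, 92 arrays) up to number 1038 and 10.18 ± 0.81 (96 arrays) from number 1067. Among strains wholly in the first block, the Elovl3 mean was 9.30 in 21 inbred strains, 9.64 in 10 AXB/BXA strains, 9.71 in 10 BXD strains and 10.81 in 3 BXH strains. Among strains wholly in the second block it was 9.31 in 6 inbred strains, 10.09 in 15 AXB/BXA strains, 10.42 in 17 BXD strains and 10.55 in 6 BXH strains. Inbred strains had the lowest mean in both blocks, and these differences were not tested.

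**Figure D3:**
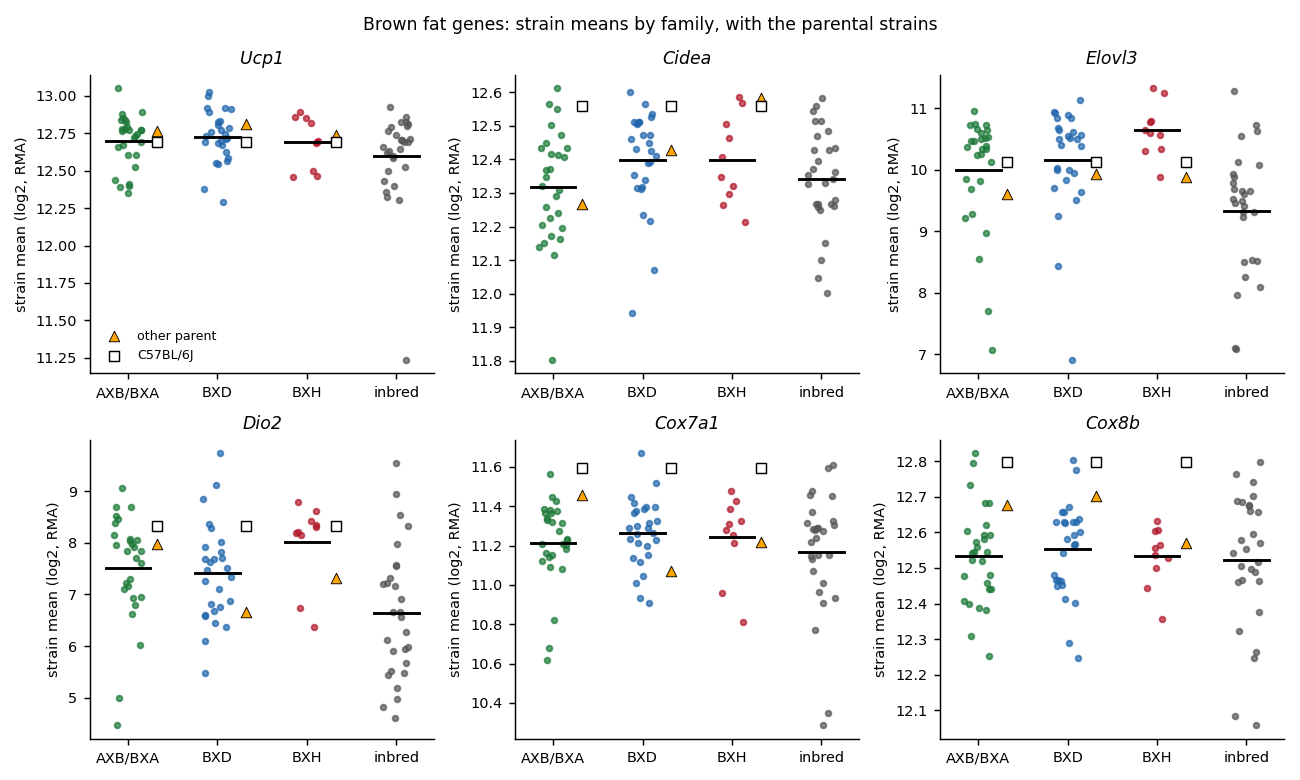
Strain means (points, log2 values) of each gene in the 3 recombinant inbred families and the inbred strains; bars are family means, triangles the other parent and squares C57BL/6J. Elovl3 reaches below and above both parents in AXB/BXA and BXD, and C57BL/6J lies above most strains for Cox7a1 and Cox8b.

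The 6 genes varied together across 93 strain means. All 15 pairs correlated positively, from r = 0.26 to r = 0.70 (median 0.43), with permutation p-values adjusted over the 15 pairs of at most 0.011. The closest pair was Cox7a1 with Cox8b (r = 0.70, rho = 0.62, permutation p = 1e-05 for both, the smallest they can give). Elovl3 with Dio2 gave r = 0.65 and rho = 0.60, and Ucp1 with Elovl3 gave r = 0.62 and rho = 0.55, with the same p. Ucp1 with Cox7a1 gave r = 0.54 and rho = 0.37 (permutation p = 1e-05 and 2.8e-04). The weakest pair was Elovl3 with Cox8b (r = 0.26, permutation p = 0.011; rho = 0.20, permutation p = 0.059, also after adjustment). Rank correlations passed for the other 14 pairs after adjustment. Related strains share alleles and are not fully independent, which the permutation p-values leave out of account.

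The leading pairs did not rest on extreme strains or on 1 array series. Without the 2 strains farthest from the median of the first gene, r was 0.60 for Cox7a1 with Cox8b, 0.60 for Elovl3 with Dio2 and 0.55 for Ucp1 with Elovl3. Within array numbers up to 1038 and from 1067, r was 0.78 and 0.59, 0.59 and 0.63, and 0.64 and 0.55 for the same pairs. NOD/ShiLtJ weighed on Ucp1 with Cox7a1, whose r was 0.39 without it, and Elovl3 with Cox8b then missed the threshold (r = 0.18, adjusted permutation p = 0.082). With the general adipocyte score regressed out, the 3 leading pairs kept r of 0.63, 0.60 and 0.57. Cidea with Cox8b dropped from 0.32 to 0.055, and 10 of the 15 pairs passed. As a description, r was also taken over deviations of arrays from their own strain mean. It was 0.73, 0.25 and 0.58 for the 3 leading pairs, and 0.044 for Dio2 with Cox8b. The median over the 15 pairs was 0.43, as across strain means. Means of few arrays carry such array-to-array co-variation, and its part in the strain correlations was not tested.

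**Figure D4:**
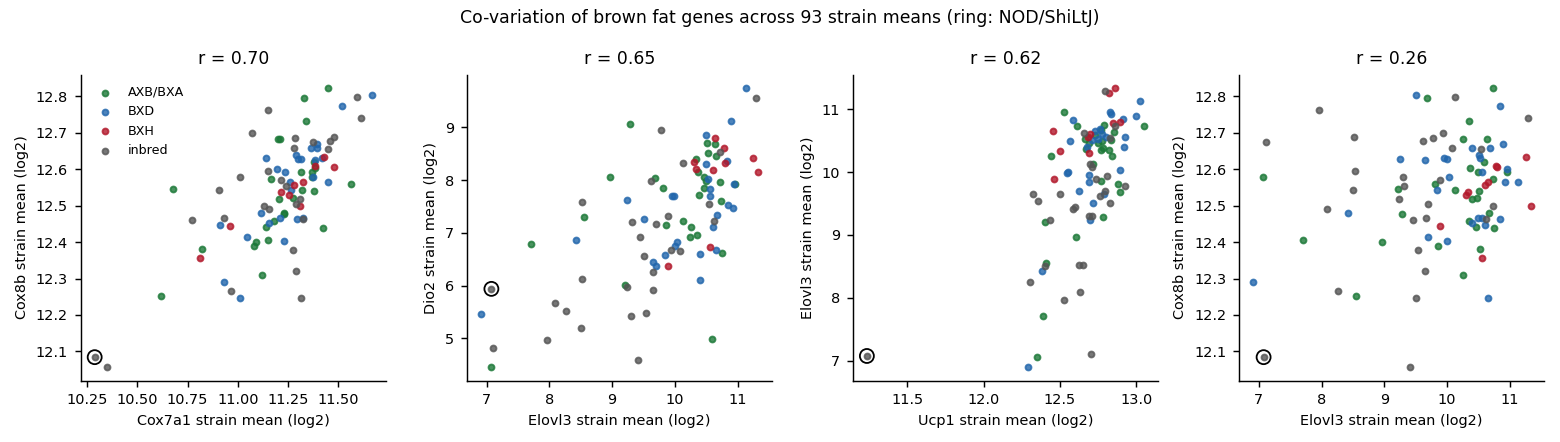
Strain means (log2 values) of 4 gene pairs, 1 point per strain coloured by family, with Pearson r above each panel and NOD/ShiLtJ ringed. The first 3 panels are the closest pairs (r of 0.70, 0.65 and 0.62) and the last is the weakest (r = 0.26).

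Scores of other lists moved with the 6 genes to different degrees across the 93 strain means. With fatty acid oxidation genes r was 0.45 (Dio2) to 0.72 (Cidea), and with nuclear respiratory chain subunits 0.45 (Elovl3) to 0.77 (Cox7a1). With general adipocyte genes r was 0.32 (Ucp1) to 0.56 (Cidea). With skeletal muscle genes r lay between -0.16 and 0.053 and with cardiac muscle genes between -0.12 and 0.15, for the oxidase subunits that muscle also uses as for the others. Cox7a1 and Cox8b followed endothelial genes (r = 0.54 and 0.55), whereas the other 4 gave 0.10 to 0.19. Cox7a1 ran against thymocyte genes (r = -0.39). The scores share arrays with the genes, so these values describe and test nothing.

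Among all other named genes, those most like Ucp1 across strain means were Tmem14c (r = 0.75, but 0.47 without NOD/ShiLtJ), Letmd1 (0.72, and 0.70 without it) and Msrb2 (0.71, and 0.56 without it). Letmd1 encodes a mitochondrial protein of brown fat. Most like Cidea were Dhrs4 (0.68), Acad11 (0.66), an acyl-CoA dehydrogenase, and Hsd17b4 (0.65), an enzyme of peroxisomal fatty acid oxidation. Most like Elovl3 were Acsl5 (0.74), which activates fatty acids, Apmap (0.72) and Elovl6 (0.70), a fatty acid elongase. Dio2 was most like Apmap (0.76), Gpam (0.67), which starts triglyceride synthesis, and Rragc (0.67). Cox7a1 was most like Ndufc1 (0.84), Atp5e (0.83) and Atp5j2 (0.81), subunits of complex I and ATP synthase. Cox8b was most like Ndufb2 (0.85), Fmc1 (0.82) and Uqcr11 (0.81), of complex I, ATP synthase assembly and complex III. Over deviations of arrays from their strain mean, r was 0.80 (Gpam) and 0.79 (Rragc) with Dio2 and 0.85 (Atp5e) with Cox7a1. It was lower for Acsl5 with Elovl3 (0.35) and Tmem14c with Ucp1 (0.30). Rragc (adjusted p = 0.16), Dhrs4 (0.13), Atp5e (0.087) and Atp5j2 (0.053) did not pass the limma strain test. Likeness across strain means thus includes array-to-array co-variation.

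Relatives of the 6 genes were less uniform. Of 18 listed paralogs, 13 were measured and 8 passed the strain test (61.5%, where 48.8% of all named genes passed; median ICC 0.282 over the 13). Ucp3, the uncoupling protein of muscle and brown fat, had the highest ICC (0.582), with strain means from 6.06 in BUB/BnJ to 9.19 in BXD28/TyJ. Elovl6 (0.449), the liver-type oxidase subunit Cox8a (0.448) and the coactivator Ppargc1b (0.409) followed. Cideb (0.376), Cox7a2l (0.318), Elovl1 (0.282) and Elovl5 (0.280) also passed. Cox7a2 (0.087) did not. Elovl4, Mecom, Cox8c and the other deiodinase Dio1 had mean levels of 3.25 (Dio1) to 4.0 (Mecom), below the median level of 4.77 over all probe sets. They did not pass either, and a strain difference could hardly be seen at such levels.

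The wider brown fat programme was read from lists of known genes. Of other genes enriched in brown fat, 16 of 17 (94.1%) passed the strain test, where 46.5% of all probe sets did, with a median ICC of 0.332 against 0.182. S100b, a calcium-binding protein that brown fat uses to attract nerves, had the highest (0.572; highest strain mean 8.20), then Mpzl2 (0.558; highest strain mean 11.10). Epsti1 (0.211) and Bmp8b (-0.039) had the lowest, Bmp8b alone missing the threshold at a mean level of 3.64. Of transcriptional regulators, 16 of 21 (76.2%) passed (median ICC 0.288). Irf4 (0.646) had the highest, with its highest mean in NOD/ShiLtJ (8.87), and Ppara (0.554), the fatty acid receptor, its lowest in AXB1/PgnJ (6.66). Irf4 did not rise with the members across strain means: r was -0.44 with Ucp1 and -0.14 to 0.031 with the others. Tbx15 (mean level 3.83) and Esrrg (2.96), both dim, did not pass. Across strain means, the regulators had a median r of 0.0057 (Elovl3) to 0.285 (Cox8b) with the 6 genes. High shares were not particular to brown fat. Smooth muscle genes passed in 8 of 9 cases, endothelial and macrophage genes in 8 of 10 each. Cardiac muscle genes passed in 7 of 9, thymocyte genes in 2 of 10 and squamous epithelium genes in 2 of 14. Of all named genes, read at 1 probe set each like the lists, 48.8% passed.

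Of adrenergic signalling and lipolysis genes, 8 of 11 (72.7%) passed, again against 46.5% of all probe sets (median ICC 0.393). Adenylyl cyclase Adcy3 led (0.759; strain means 6.02 in LG/J to 10.14 in AXB6/PgnJ), then Mgll (0.559), a lipase, lowest in AXB1/PgnJ (10.12). Gnas and Creb1 did not pass, but their probe sets were dim (mean levels 3.10 and 3.76), so nothing is read from this about these genes. Of fatty acid oxidation genes, 10 of 16 (62.5%) passed (median ICC 0.313). Cpt2, of mitochondrial fatty acid import, led (0.491) with its lowest mean in AXB1/PgnJ (9.62), followed by Eci1 (0.398). Etfa (0.064) and Acadl (0.061) did not pass. Of nuclear respiratory chain subunits, 9 of 23 (39.1%) passed (median ICC 0.165), a share below that of all probe sets. Cyc1 (0.351) and Ndufb8 (0.347) led and Cox5a (0.049) and Cox6c (0.024) were lowest. Of skeletal muscle genes, 0 of 15 passed in limma (median ICC 0.052), also 0 at an unadjusted p below 0.05. Of genes that mark beige fat cells, 3 of 7 (42.9%) passed (median ICC 0.16), namely P2rx5 (0.488), a nucleotide-gated channel, Klhl13 (0.260) and Cd40 (0.235). Of genes that mark white fat cells, 4 of 7 (57.1%) passed (median ICC 0.259). Both shares lie near that of all probe sets.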

How the data were processed

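The deposited values are log2 expression values made by the authors: per the submitters' processing notes, arrays were read with GCOS and summarised with RMA, which adjusts background, quantile-normalises arrays and summarises probes. Their versions and the genome build are unknown from the labels and notes. Quantile normalisation fixes each array's overall distribution, and array medians lay between 4.56 and 4.88. The number of arrays limits the precision.

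Of 22416 probe sets, 89 controls were left out. Of 22327 tested, 17783 carried 1 symbol, 284 several and 4260 none listed. BXD32/TyJ (2 arrays), whose descriptions carry an unexplained suffix, was left out of fits and correlations. R 4.3.3 with limma 3.58.1 gave moderated F tests over strains (93 residual degrees of freedom), contrasts, and Benjamini-Hochberg adjustment over all probe sets. ICC came from one-way variance components. Correlations used 100000 permutations, two-sided (NumPy 2.4.6). Scripts were tested on simulated data.

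The genes and lists were chosen with earlier results of these data known. Named were all measured members and paralogs, the 2 highest and 2 lowest ICC genes of other lists, and the 3 most alike genes per member. Alternatives covered filter, scaling, array-number block, other tissues, samples and probe sets.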

Additional observations from a re-analysis of the deposited data

Results flagged for a closer look

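In the 3 strains with 4 arrays (AXB19b/PgnJ, BXD19/TyJ and BXH4/TyJ), 18 sets of array values were examined for 1 array far from its group, and 3 were found. Chance gives about 1 in 20. In AXB19b/PgnJ the lowest Cox7a1 array measured 10.77, with the other arrays between 11.30 and 11.40. The lowest Cox8b array of that strain measured 12.27, with the others between 12.59 and 12.61. Both values came from AXB19b/PgnJ replicate 1, whose squamous epithelium score was 4.25, against 3.98, -0.23 and -0.40 on the other arrays. In BXD19/TyJ the lowest Ucp1 array measured 12.64, with the others between 12.82 and 12.85.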

How the results depend on the processing

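Leaving out each strain in turn gave 3 to 6 genes called for the strain effect, 1 to 2 within AXB/BXA and 1 to 5 within BXD. The count over all strains, 6 in the fit reported, was 3 without arrays high in thymocyte or squamous genes, 3 within array numbers up to 1038, 2 within numbers from 1067 and 3 among strains with consecutive numbers. These fits hold fewer arrays, and their counts stand without the share of all probe sets that passed. Lower power over all probe sets and a change in these genes are therefore not told apart here. Within BXD the count, 3 as reported, was 5 with array medians subtracted and 0 without arrays high in thymocyte or squamous genes. These BXD counts also stand without that share. Ucp1 missed the threshold with array medians subtracted (adjusted p = 0.069), with a covariate for array-number block (0.055) and with BXD32/TyJ included (0.052). The cause was not tested.

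Among differences that passed no test, 8 changed sign. C3H/HeJ minus C57BL/6J was -0.062 for Ucp1 and -0.079 for Cidea with array medians subtracted, and A/J minus C57BL/6J for Dio2, over single parental arrays left out, ran from -0.71 to 0.0013 (without C57BL/6J replicate 3). Without arrays high in thymocyte or squamous genes, AXB/BXA minus BXD was -0.049 for Dio2 and 0.0073 for Cox7a1, and AXB/BXA minus BXH was 0.030 for Cox7a1. With arrays as units and strain as a random block, AXB/BXA minus BXH was -0.0024 for Cox8b and BXD minus BXH -0.015 for Cidea. Other settings kept the counts of called genes within 1.5 times in the contrasts, the correlations and the model with the adipocyte score. Of 120 single correlations recomputed, 106 kept their side of the threshold and 14 lost it. The array-number block could not be fitted within BXD, where no strain spans both blocks, and of 3 genes planned for a smaller adipocyte score only Adipoq was measured. No paired analysis was possible because replicate numbers pair no arrays across strains.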
